A study of Mus musculus with 3 samples.

Results

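The 36 genes described here encode the proteins that copy nuclear DNA and supply its building blocks. They were chosen by symbol from the annotation of the deposited count files, in which 36 of 32285 genes carry one of the listed names, and all 36 were found. The data are single-cell RNA counts from condylar cartilage, the cartilage on the jaw side of the temporomandibular joint, of wild-type C57BL6 mice. There was 1 library per stage: E16.5 (embryonic day 16.5, when the superior joint cavity forms), P0 (the day of birth, when the joint comes into use) and 13w (13-week-old adults). Each library came from condyles of 7 to 20 mice pooled by age, digested with collagenase A and dispase 2, and sorted for live cells that took up Calcein and excluded DAPI. No library carried an engineered allele or a treatment. With 1 pooled library per stage no statistical test was possible, so every difference below is between 3 libraries, and the intervals (95%, exact) cover counting error only.

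Before a cell divides, the origin recognition complex with Cdc6 and Cdt1 loads the Mcm2 to Mcm7 ring onto origins, and Cdc45 and the GINS complex turn the ring into an active helicase. DNA polymerase alpha with its primase starts each new strand, the Rfc clamp loader places the Pcna ring that holds the main polymerases, and Fen1 and Lig1 join the fragments of the lagging strand. Ribonucleotide reductase, thymidylate synthase, thymidine kinase and dUTPase keep the deoxynucleotide pool filled, and Uhrf1 helps copy DNA methylation onto the new strand. Many of these genes are switched on by E2F transcription factors as cells enter S phase, and most growth of the condyle is known to come from dividing cells beneath its surface.

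Kept cells had 500 or more genes and no more than 10% mitochondrial UMIs (unique molecular identifiers, 1 per captured RNA molecule). This left 4562 of 5458 barcodes at E16.5, 3999 of 4853 at P0 and 8028 of 8899 at 13w, with 100546288, 94002214 and 113130140 UMIs. Median depth per cell was 17401.5, 17954 and 11010 UMIs. The libraries shared between 10 and 15 cell barcodes in pairs, at most 0.309% of a library. All 7 chondrocyte markers were detected in each library, and their summed level was 8886 CPM (counts scaled to the total UMIs of the library in the usual way) in the E16.5 library, 23421 in the P0 library and 22544 in the adult library. Col2a1, the main cartilage collagen, made up 17378 CPM of the adult sum, while at 13w against P0 5 of the 7 markers were lower (median log2 ratio -0.80) and Matn1 went from 165 to 1.33 CPM. Fibroblast markers summed to 3633, 6657 and 21267 CPM and osteoblast markers to 1217, 1883 and 18044 CPM, so the marker RNA of the libraries differed. Whether this reflects the mix of cells or the RNA per cell was not tested. Its part in the results over all cells was not tested either.

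A cell holding at least 1 UMI of both Mki67 and Top2a, proliferation genes whose RNA is most abundant late in the cell cycle, is called a double-positive cell below. There were 1285 such cells in the E16.5 library (28.2% of cells, 26.9% to 29.5%), 553 in the P0 library (13.8%, 12.8% to 14.9%) and 591 in the adult library (7.36%, 6.80% to 7.95%). After each cell was thinned to 3000 UMIs, the shares were 14.9%, 7.85% and 4.70%. Double-positive cells were deeper than the rest, with medians of 24577, 22692 and 21499 UMIs, and held 35.0%, 16.7% and 12.2% of all UMIs. Mki67 and Top2a themselves were at 410 and 695 CPM in these cells at E16.5, 417 and 599 CPM at P0, and 676 and 854 CPM at 13w.

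Promoter sequences are shown for the leading members, ranked by the number of comparisons below in which they were called (4 for Rrm2, 3 for Pclaf, Cdc6 and Pola1, and 2 for Mcm5) and, among ties, by their largest ratio. Mcm4, with 3, ranked above Pola1 and had no entry in the table used. They are shown because E2F words upstream of such genes are a known shared feature. They are the bases nearest the transcription start, read in the direction of the gene, that no annotated exon covers, from RefSeq's promoter table on build GRCm38.p6, in which 30 of the 36 genes had an entry. Capitals mark an E2F word (TTTCCCGC, TTTGGCGC, TTTCGCGC or TTTGCCGC) or a CCAAT box on either strand, and overlapping words run together. The Rrm2 stretch lies at chr12:24708081-24708240 (plus strand), Pclaf at chr9:65890077-65890236 (plus), Cdc6 at chr11:98907991-98908150 (plus), Pola1 at chrX:93632156-93632315 (minus) and Mcm5 at chr8:75109349-75109508 (plus).
Rrm2: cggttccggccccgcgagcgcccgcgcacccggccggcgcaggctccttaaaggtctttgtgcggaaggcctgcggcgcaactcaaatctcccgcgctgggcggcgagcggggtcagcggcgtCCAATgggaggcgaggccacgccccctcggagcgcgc
Pclaf: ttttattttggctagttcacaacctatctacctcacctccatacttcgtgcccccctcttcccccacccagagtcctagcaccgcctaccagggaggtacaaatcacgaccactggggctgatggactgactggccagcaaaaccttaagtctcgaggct
Cdc6: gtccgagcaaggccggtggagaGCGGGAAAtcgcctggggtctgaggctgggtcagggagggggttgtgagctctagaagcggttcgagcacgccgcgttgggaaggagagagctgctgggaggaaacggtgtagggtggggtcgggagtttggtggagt
Pola1: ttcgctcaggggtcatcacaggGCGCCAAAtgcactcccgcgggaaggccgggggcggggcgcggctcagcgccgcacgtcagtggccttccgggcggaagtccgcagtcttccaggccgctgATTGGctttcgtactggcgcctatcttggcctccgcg
Mcm5: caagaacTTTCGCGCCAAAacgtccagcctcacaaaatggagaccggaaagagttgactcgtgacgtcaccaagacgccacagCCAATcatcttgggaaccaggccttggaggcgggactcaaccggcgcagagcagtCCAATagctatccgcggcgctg

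Cdc6 and Pola1 each held 1 E2F word, both on the strand opposite the gene and both 131 to 138 bases before the start. Mcm5 held 2 overlapping words on opposite strands, between 142 and 153 bases before the start, together with 2 CCAAT boxes. Rrm2 held a CCAAT box and no E2F word of these spellings. The 2 CCAAT boxes of Pclaf lie 37 to 66 bases before its start, in bases that another annotated transcript covers, and are not in the stretch shown. Over the 250 bases before the start, 8 of the 30 matched members had an E2F word (Cdc6, Mcm5, Mcm6, Mcm7, Orc1, Pola1, Rfc3 and Uhrf1). These were 8 of their 35 promoter windows (22.9%), against 1.86% of the 32851 windows counted, which left out 1 chromosome of the table. A CCAAT box stood in 21 of the 35 windows (60%), against 33.8% of all windows counted. TTTGAA, the core of the element that holds many mitotic genes silent until late in the cycle, stood in 3 of the 35 windows (8.57%), against 16.0%. These matches are letters in a window, and binding was not measured.

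Over all cells, replication genes were most abundant in the embryonic library. Their summed level was 1843 CPM in the E16.5 library, 741 in the P0 library and 585 in the adult library, which is 2.49-fold lower at P0 than at E16.5 and 1.27-fold lower at 13w than at P0. A gene counted as measured if the higher of the paired libraries had 10 CPM or more, and it was called higher or lower if the ratio was 2 or more and its interval left out 1. At P0 against E16.5, 23 of the 33 measured members were called lower and 0 higher, where 8.72% of all 8261 measured genes were lower and 5.31% higher. The members' median log2 ratio was -1.29, and that of all measured genes was -0.13. At 13w against P0, 1 of 24 was called higher and 0 lower, against 8.46% and 7.93% of 8098 genes, with medians of -0.46 and -0.13. Without cells carrying blood markers, 4 of 24 members were called lower there in place of 0, and 682 of all 8050 genes were. With cells thinned to 3000 UMIs, 3 of 23 members were, and 646 of all 8254 genes. At 13w against E16.5, 30 of 33 were called lower and 0 higher, against 16.3% and 11% of 8481 genes, with medians of -1.56 and -0.29. The 3 comparisons share libraries and are not independent of each other.

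All 36 members had their highest CPM at E16.5, and 31 followed the order E16.5, P0, 13w. The exceptions were Cdc6, Pcna, Pola1, Rpa1 and Rrm2, which were lowest at P0. The order of the lower pair depended on scaling: with TMM or median-of-ratios factors, 26 members kept the full order, and Rpa1 was no longer highest at E16.5. A sum over all cells falls when fewer cells replicate as well as when each holds less of the RNA, and those cannot be told apart in the sum. The double-positive cells were therefore compared separately, as in the plot of levels by gene.

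**Figure D1:**
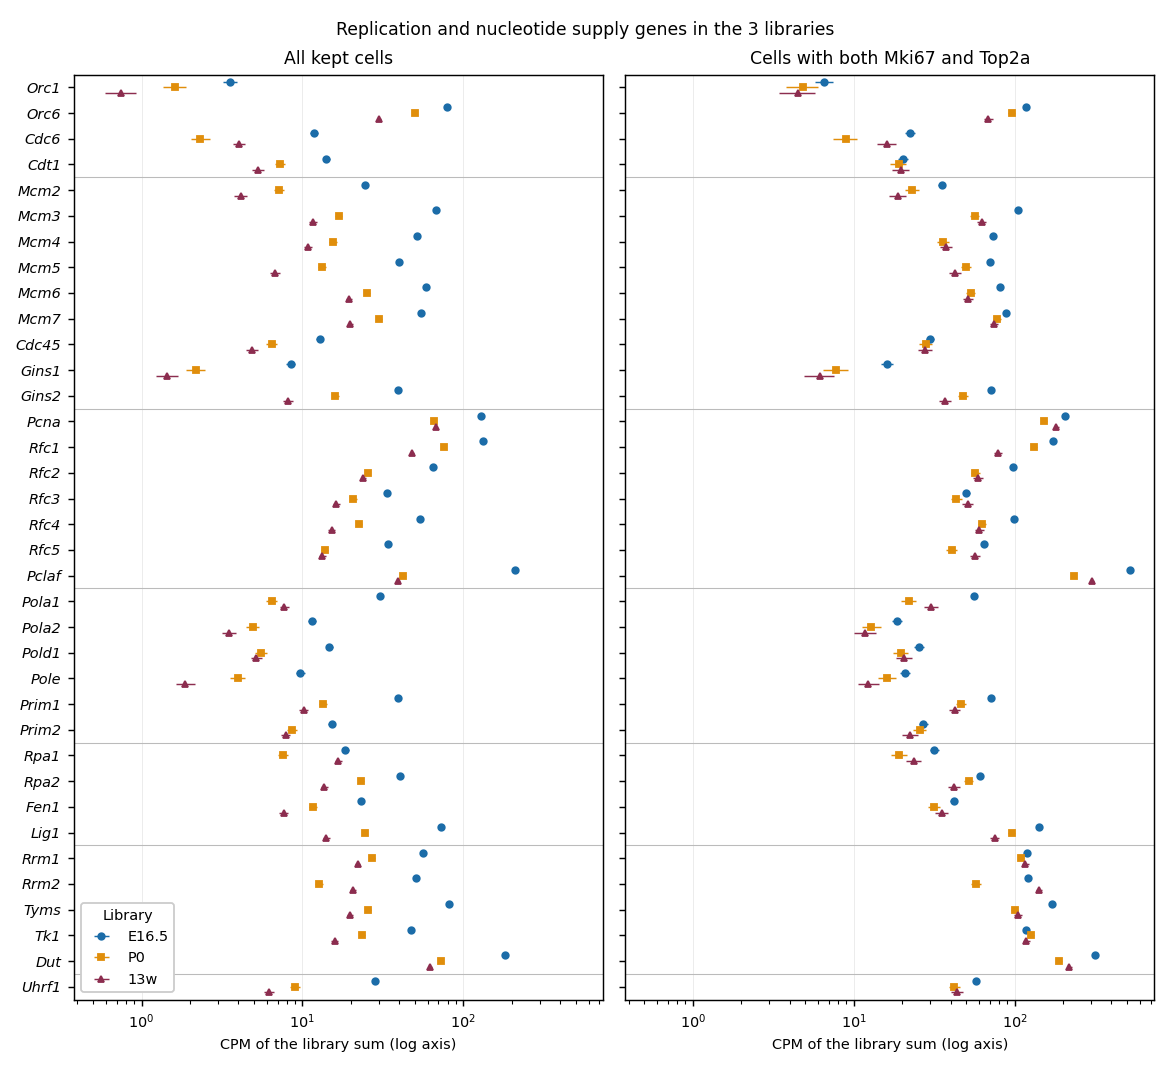
CPM of each of the 36 genes (rows, grouped by role) on a log axis in the 3 libraries, summed over all kept cells (left) and over cells with both Mki67 and Top2a (right). Bars are 95% counting intervals. On the left the E16.5 point is the highest for all 36 genes, and on the right the 3 points draw closer together, with Rrm2 highest at 13w.

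Within double-positive cells the gap between stages was smaller. These cells were picked by proliferation genes, and the part of that choice in the smaller gap was not tested. The 36 genes summed to 3353 CPM in the E16.5 library (interval 3334 to 3372), 2198 in the P0 library (2175 to 2221) and 2318 in the adult library (2293 to 2344), so that P0 was 1.53-fold and 13w 1.45-fold below E16.5. At P0 against E16.5, 6 of 35 measured members were called lower and 0 higher, against 5.28% and 6.75% of 8341 genes, with medians of -0.57 for the members and -0.07 for all genes. The 6 were Cdc6, Mcm4, Gins1, Pclaf, Pola1 and Rrm2. At 13w against P0 only Rrm2 was called higher and 0 of 34 were called lower, against 9.62% and 8.36% of 8485 genes, with medians of 0.05 and -0.07. At 13w against E16.5 only Gins1 and Rfc1 of 35 were called lower and 0 higher, against 13% and 13.8% of 8668 genes, with medians of -0.66 and -0.13. That count depended on 19.1% of the adult double-positive cells, which carry blood cell markers: without such cells 12 of the 35 members were called lower, against 16% of genes, as described below.

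The difference between P0 and E16.5 in double-positive cells depended on depth and on the cells taken. Cells were also thinned to 3000 UMIs before the double-positive cells were picked. Then 2 of 35 members were called lower, and 745 of all 8680 measured genes were. The members' median was -0.24 against -0.14 for all genes. Where a UMI of either gene sufficed, 18 of 35 members were called lower, and 583 of all 8328 measured genes were. In CPM, E16.5 was highest for 33 of 36 members, with Tk1 highest at P0 and Rfc3 and Rrm2 highest at 13w, and with TMM factors E16.5 was highest for 30, Cdt1, Cdc45 and Rrm1 being the other exceptions.

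**Figure D2:**
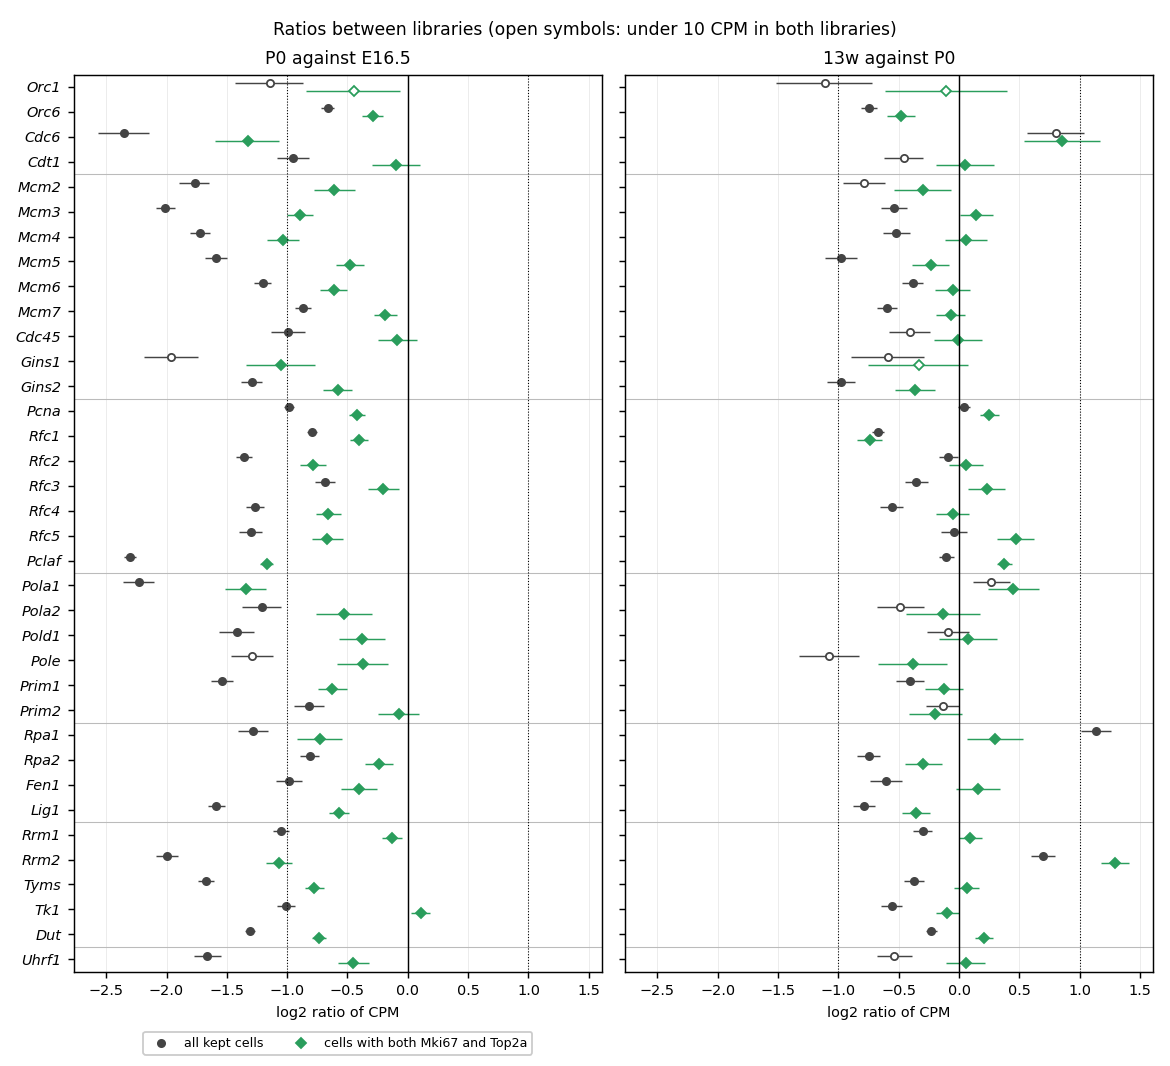
Log2 ratio of CPM for each gene at P0 against E16.5 (left) and at 13w against P0 (right), in all kept cells (circles) and in cells with both Mki67 and Top2a (diamonds), with 95% counting intervals. Dotted lines mark 2-fold and open symbols are genes under 10 CPM in both libraries. The circles on the left all lie below 0, the diamonds lie nearer to 0 than the circles, and on the right Rrm2 (diamond) and Rpa1 (circle) lie beyond 2-fold above 0.

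Among the genes that license origins, Cdc6 showed the widest spread. This ATPase, which recruits the Mcm ring with Cdt1, was at 11.9 CPM in the E16.5 library (11.2 to 12.5), 2.32 in the P0 library (2.02 to 2.65) and 4.04 in the adult library (3.68 to 4.43) over all cells. In double-positive cells it was at 22.3, 8.90 and 16.1 CPM, lowest at P0 in both views. Its log2 ratio at P0 against E16.5 was -2.35 over all cells (-2.57 to -2.14) and -1.33 in double-positive cells (-1.60 to -1.07). Cdt1, the other loading factor, was at 14.1, 7.28 and 5.30 CPM over all cells and at 20.3, 19.0 and 19.7 CPM in double-positive cells, among the members nearest to no change there. Orc6, a small subunit of the origin recognition complex, was at 79.5, 50.2 and 29.9 CPM over all cells and at 117, 95.9 and 68.8 CPM in double-positive cells, stepping down at each stage. Orc1, its largest subunit, stayed under 10 CPM in every library, with 357, 151 and 84 UMIs in all, and entered no comparison.

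The 6 subunits of the Mcm ring were all lower after birth over all cells. Mcm3 was at 67.8 CPM in the E16.5 library, 16.9 in the P0 library and 11.6 in the adult library, Mcm4 at 51.3, 15.5 and 10.8 CPM, and Mcm5 at 39.8, 13.2 and 6.73 CPM. Mcm2 was at 24.4, 7.16 and 4.15 CPM. These 4 were 3.01-fold (Mcm5) to 4.02-fold (Mcm3) lower at P0 than at E16.5, and 4.73-fold (Mcm4) to 5.91-fold (Mcm5) lower at 13w than at E16.5. Mcm6 and Mcm7 differed less: Mcm6 was at 58.2, 25.3 and 19.4 CPM, and Mcm7 was at 54.7, 30.04 and 19.9 CPM and was not called at P0 against E16.5. Levels are compared here between libraries for 1 gene at a time, and not between genes.

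In double-positive cells the Mcm subunits were 1.14-fold to 2.05-fold lower at P0 than at E16.5, and their log2 ratios at 13w against P0 lay between -0.30 (Mcm2) and 0.14 (Mcm3). Without cells carrying blood markers, those ratios lay between -1.14 (Mcm2) and -0.30 (Mcm4), with Mcm5 at -0.72, Mcm6 at -0.74 and Mcm7 at -0.34. Over the whole double-positive group Mcm4, the single subunit called at P0 against E16.5, was at 73.9, 36.05 and 37.6 CPM. Mcm7 was at 89.0, 78.1 and 74.5 CPM, the narrowest range of the 6. Of the factors that activate the ring, Cdc45 was at 12.8, 6.44 and 4.85 CPM over all cells but at 29.8, 28.0 and 27.9 CPM in double-positive cells, where the intervals of the 3 libraries overlapped. Gins1, a subunit of the GINS complex, was at 16.1 CPM in double-positive cells in the E16.5 library (14.8 to 17.4), 7.76 in the P0 library (6.44 to 9.26) and 6.15 in the adult library (4.91 to 7.60), and was called lower in both later libraries. Gins2, its partner, was at 71.6, 47.8 and 37.1 CPM in the same cells and at 39.4, 16.0 and 8.14 CPM over all cells.

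The sliding clamp and its loader were also highest at E16.5 over all cells, and their later levels varied by gene. Pclaf, a small protein that binds Pcna, was at 209 CPM in the E16.5 library (206 to 212), 42.4 in the P0 library (41.1 to 43.7) and 39.3 in the adult library (38.2 to 40.5) over all cells, a 4.93-fold step between the first 2 libraries. In double-positive cells it was at 524, 233 and 302 CPM, and E16.5 was again the highest. Pcna, the clamp itself, was at 129, 65.4 and 67.4 CPM over all cells and at 205, 153 and 182 CPM in double-positive cells. Its log2 ratios against E16.5 were -0.98 at P0 and -0.94 at 13w over all cells, just inside 2-fold, so it was called in no comparison.

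Of the 5 clamp loader subunits, Rfc2, Rfc4 and Rfc5 were called lower at P0 than at E16.5 over all cells, with log2 ratios of -1.36, -1.27 and -1.30, and Rfc1 and Rfc3 were not, with -0.80 and -0.69. Rfc1, the large subunit, was at 132, 76.0 and 47.8 CPM over all cells. In double-positive cells Rfc1 was at 174 CPM in the E16.5 library (169 to 178), 131 in the P0 library (126 to 137) and 78.6 in the adult library (74.0 to 83.4), with no overlap, and was 2.21-fold lower at 13w than at E16.5. In the same cells Rfc2 (98.1, 56.9 and 59.2 CPM) and Rfc4 (99.0, 62.7 and 60.5 CPM) were 1.66-fold and 1.64-fold lower at 13w than at E16.5, and their log2 ratios at 13w against P0 were 0.06 (-0.08 to 0.20) and -0.05 (-0.19 to 0.08). Rfc3 was at 50.2, 43.6 and 51.1 CPM and Rfc5 at 64.8, 40.8 and 56.5 CPM, both lowest at P0. Without cells carrying blood markers, described below, the log2 ratio at 13w against P0 was -0.22 for Rfc2, 0.03 for Rfc3, -0.27 for Rfc4 and 0.45 for Rfc5, and after thinning it was -0.01 for Rfc5.

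Pola1, the catalytic subunit of the polymerase that starts new strands, was at 30.1, 6.43 and 7.73 CPM over all cells and at 56.0, 22.1 and 30.2 CPM in double-positive cells. Its log2 ratio at P0 against E16.5 was -2.23 over all cells and -1.34 in double-positive cells, the lowest of all 35 measured there. Pola2, which tethers that enzyme, was at 11.4, 4.93 and 3.52 CPM over all cells. Prim1, the catalytic primase subunit, was at 39.1, 13.4 and 10.2 CPM over all cells and at 71.4, 46.3 and 42.5 CPM in double-positive cells. Prim2, its large subunit, was at 15.3, 8.65 and 7.88 CPM over all cells and was called in no comparison. Pold1, the catalytic subunit of the main lagging strand polymerase, was at 14.7, 5.51 and 5.17 CPM over all cells and at 25.5, 19.6 and 20.6 CPM in double-positive cells. Pole, the leading strand enzyme, reached 10 CPM in double-positive cells only, at 20.9, 16.2 and 12.4 CPM.

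Rpa1, the large subunit of the complex that coats single-stranded DNA, was the single member called higher at 13w than at P0 over all cells. It was at 18.5 CPM in the E16.5 library (17.6 to 19.3), 7.61 in the P0 library (7.06 to 8.18) and 16.7 in the adult library (16.0 to 17.5), a 2.20-fold step up after P0. In double-positive cells it was at 31.8, 19.2 and 23.6 CPM and was not called. Cells with neither Mki67 nor Top2a showed the step most: Rpa1 was at 9.02, 4.90 and 15.9 CPM there, and 13w was the highest of the 3 libraries. Rpa2, its partner, did not share it, at 40.5, 23.0 and 13.7 CPM over all cells and 26.0, 16.2 and 9.55 CPM in the cells with neither gene.

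Lig1, the ligase that seals the lagging strand, was at 73.1, 24.3 and 14.1 CPM over all cells and at 143, 96.3 and 75.3 CPM in double-positive cells. Fen1, the nuclease that trims the flaps before sealing, was at 23.0, 11.6 and 7.65 CPM over all cells and at 41.8, 31.6 and 35.2 CPM in double-positive cells. Neither was called in double-positive cells, and over all cells Lig1 was called lower at both later stages while Fen1 was called at 13w against E16.5. Without cells carrying blood markers, described below, Lig1 was called lower in double-positive cells at 13w against E16.5 (log2 ratio -1.23, -1.35 to -1.11). Fen1 was still not called there (-0.49).

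All 5 nucleotide supply genes were called lower at P0 and at 13w than at E16.5 over all cells in CPM. For Rrm1 and Tk1 the step to P0 was only just past 2-fold, so these calls depend on scaling. With TMM factors 21 members were called lower at P0 in place of 23. The 5 genes parted in double-positive cells. Rrm2, the small subunit of ribonucleotide reductase, was at 121 CPM in double-positive cells in the E16.5 library (117 to 124), 57.7 in the P0 library (54.0 to 61.5) and 141 in the adult library (135 to 148). Its P0 level was the lowest and its 13w level the highest, with log2 ratios of -1.07 and then 1.29 (1.18 to 1.41). Rrm1, the large subunit of the same enzyme, was at 120, 109 and 117 CPM in the same cells and dipped far less at P0, with a log2 ratio against E16.5 of -0.13 (-0.21 to -0.05). Over all cells Rrm2 was at 50.7, 12.7 and 20.6 CPM and Rrm1 at 56.4, 27.2 and 22.1 CPM.

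Tk1, the thymidine kinase of S phase, was nearly level in double-positive cells at 117, 127 and 118 CPM, while over all cells it was at 47.1, 23.4 and 15.9 CPM. Tyms, thymidylate synthase, was at 172, 100 and 105 CPM in double-positive cells and at 81.8, 25.7 and 19.9 CPM over all cells. Dut, the enzyme that removes dUTP, was at 315, 190 and 219 CPM in double-positive cells and at 181, 73.0 and 62.3 CPM over all cells. Uhrf1, which reads hemimethylated DNA behind the fork, was at 57.7, 42.2 and 43.9 CPM in double-positive cells and at 28.4, 8.97 and 6.19 CPM over all cells, a 4.59-fold difference between the first and last library.

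The RNA of these genes lay in double-positive cells to an extent that differed by gene. The share of a member's UMIs held by double-positive cells had a median over members of 62.9% in the E16.5 library, 50.1% in the P0 library and 49.9% in the adult library, beside 35.0%, 16.7% and 12.2% of all UMIs. Pclaf was the most concentrated, at 87.9%, 92.0% and 93.9%, followed by Tk1 at 87.3%, 90.6% and 91.0%. Rrm2 had 83.5%, 75.8% and 84.0% of its UMIs there. At the other end stood Rfc1, with 46.1%, 28.9% and 20.1%, and Rpa1, whose share was 60.3% in the E16.5 library (58.0% to 62.5%), 42.2% in the P0 library (38.6% to 46.0%) and 17.2% in the adult library (15.6% to 19.0%). At 13w, 76.1% of Rpa1 UMIs were in cells with neither Mki67 nor Top2a, which held 80.1% of all UMIs.

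**Figure D3:**
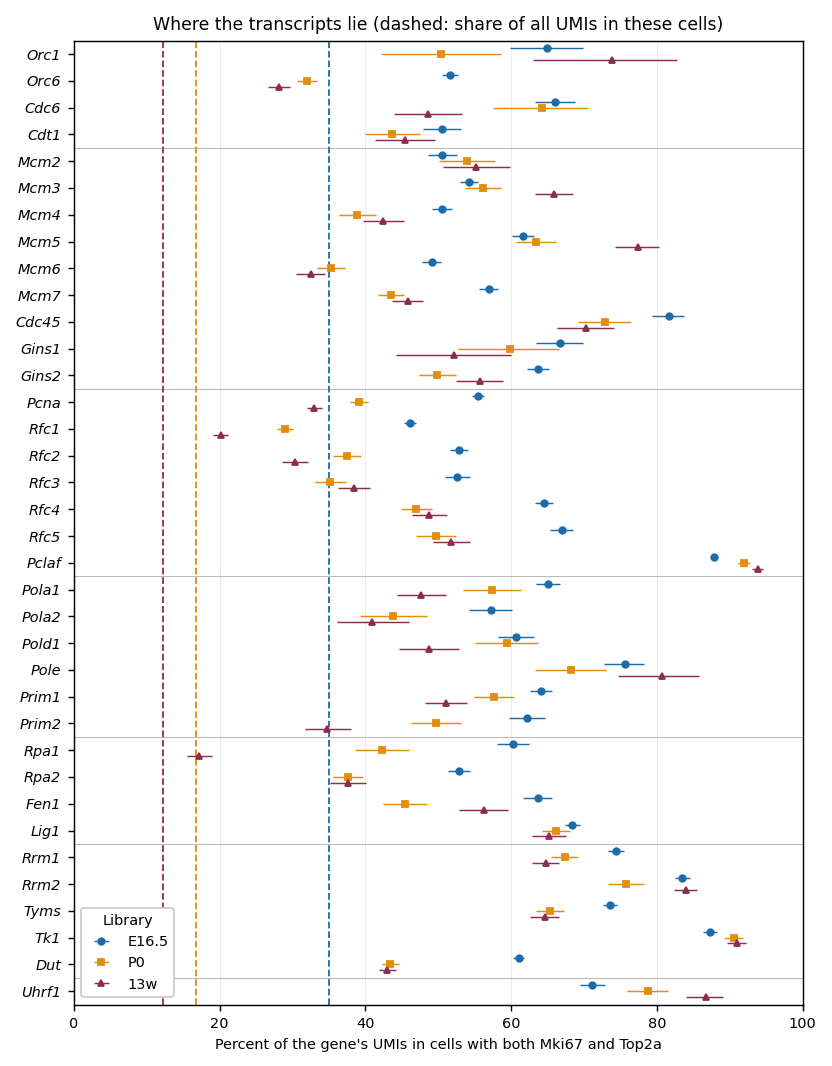
Percent of each gene's UMIs that lie in cells with both Mki67 and Top2a, per library, with 95% intervals. Dashed lines give the share of all UMIs in those cells (35.0%, 16.7% and 12.2%). Pclaf and Tk1 lie near 90% in all 3 libraries, and Rpa1 and Rfc1 at 13w lie nearest to their dashed line.

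The level in double-positive cells was a median of 3.99-fold above that in cells with neither gene at E16.5, 5.64-fold at P0 and 7.50-fold at 13w. The widest contrast was that of Pclaf at 13w, 302 against 1.32 CPM. Mcm5 went from 4.03-fold at E16.5 to 10.98-fold at P0 and 30.4-fold at 13w, and Uhrf1 from 7.34-fold to 24.97-fold and 68.6-fold. Rfc1 kept a low contrast of 1.69-fold, 2.07-fold and 1.81-fold. These genes were thus unequal as marks of a double-positive cell.

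Cells with neither Mki67 nor Top2a held less replication gene RNA after birth as well. The summed level was 830 CPM in the E16.5 library, 416 in the P0 library and 330 in the adult library. At P0 against E16.5, 11 of 23 measured members were called lower there and 0 higher, against 6.85% and 4.03% of 8048 genes, and at 13w against E16.5, 19 of 24 were called lower and 0 higher, against 15.1% and 10.5% of 8276 genes. Pclaf went from 17.4 CPM to 2.36 and 1.32 CPM in these cells, Mcm3 from 36.3 to 7.80 and 3.84 CPM, and Mcm2 from 14.7 to 3.00 and 1.76 CPM. At 13w against P0, Rpa1 alone was called higher and 0 were called lower of 12, against 8.48% and 8.67% of 7921 genes. This group was looked at after the results over all cells were known.

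Counted per cell after thinning to 3000 UMIs, a cell held a median of 3 UMIs of the 36 genes at E16.5 and 1 at P0 and at 13w. In double-positive cells the medians were 9, 6 and 6. Cells with at least 5 such UMIs were 39.7% of the E16.5 library (38.3% to 41.2%), 12.6% of the P0 library (11.6% to 13.7%) and 5.48% of the adult library (4.98% to 6.01%). Of those cells, 56.9%, 71.1% and 79.4% were double-positive, and 24.1%, 17.0% and 14.0% held neither Mki67 nor Top2a. Thinning left out 170, 124 and 321 cells that had fewer UMIs.

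**Figure D4:**
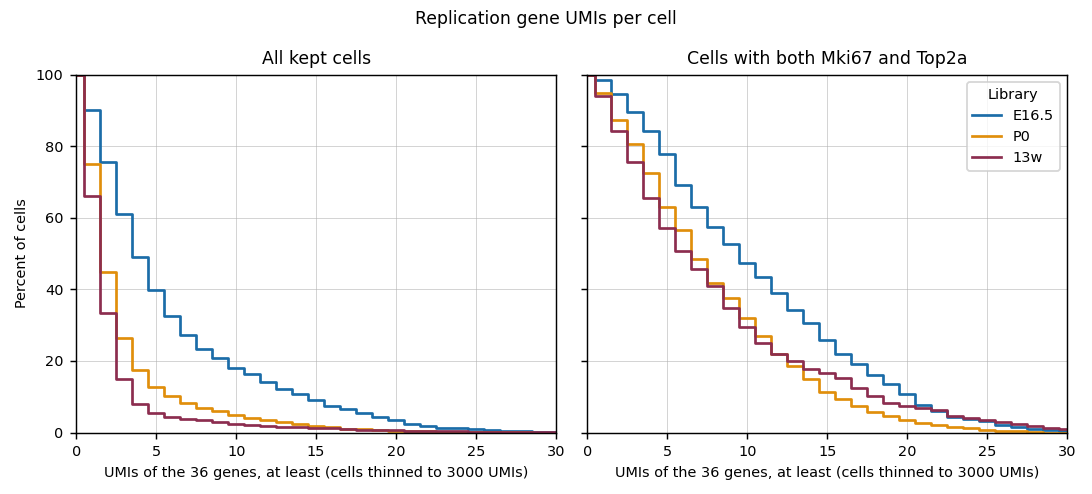
Percent of cells (vertical axis) holding at least a given number of UMIs of the 36 genes (horizontal axis) after thinning to 3000 UMIs, in all kept cells (left) and in cells with both Mki67 and Top2a (right). On the left E16.5 lies above the others, with 39.7% of cells at 5 UMIs or more against 12.6% and 5.48%. On the right 13w crosses P0 near 12 UMIs and has the longer tail, with a 95th percentile of 22 UMIs in both E16.5 and 13w against 18 at P0.

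Free RNA in droplets gives stray UMIs, so detection was set beside cells with at least 50 Col10a1 UMIs, a mark of hypertrophic chondrocytes, which as a rule have left the cell cycle. There were 226, 515 and 241 such cells among the thinned ones, with medians of 48314, 38865 and 32703 UMIs before thinning. All kept cells had medians of 17401.5, 17954 and 11010 UMIs. Stray UMIs may be a smaller part of deeper cells, so the Col10a1 cells may understate the background. The part of this in the shares was not tested. A Pclaf UMI was found in 26.1%, 7.69% and 4.24% of all thinned cells (43.6%, 16.8% and 8.18% without thinning), against 1.77%, 0.777% and 1.24% of the Col10a1 cells. For Pcna the shares were 28.2%, 17.4% and 17.0% (70.3%, 59.4% and 47.1% without thinning), against 7.52%, 9.51% and 7.88%. Tk1 was found in 10.4%, 5.14% and 2.72% of cells (29.5%, 14.4% and 7.03% without thinning), against 1.33%, 0% and 1.24%, where the 0 of 515 at P0 allows a share of up to 0.583% by the usual floor of 3 counts and 0.714% by the exact interval. Mcm6 stood apart: its share in Col10a1 cells was 3.98% and 5.05% at E16.5 and P0 but 16.6% (12.1% to 21.9%) at 13w, above the 4.55% of all adult cells (15.4%, 7.33% and 4.55% by stage, or 49.9%, 33.0% and 15.4% without thinning). In the adult library 6 of the 36 members were detected in no larger a share of all thinned cells than of Col10a1 cells, namely Orc1, Mcm6, Gins1, Rfc1 (12.6% against 12.9%), Rfc4 (3.68% against 3.73%) and Prim2 (2.37% against 2.49%). For these 6 the comparison could not separate detection at 13w from stray RNA. The same held for every other member whose adult interval overlapped that of the Col10a1 cells. The Orc1 and Gins1 shares of Col10a1 cells rest on 1 and 2 of 241 cells. Mcm6 was itself higher in adult Col10a1 cells, which therefore give no background for it. For 31, 24 and 6 of the 36 by stage, the interval over all cells lay wholly above that of the Col10a1 cells.

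Blood cell RNA moved with one part of these results. The 5 blood cell markers, Ptprc, Laptm5, Coro1a, Cd53 and Hcls1, summed to 24.5, 8.65 and 192 CPM in double-positive cells, none of them at 0, and cells with at least 3 such UMIs were 29 of the double-positive cells in the E16.5 library (2.26%), 3 in the P0 library (0.542%) and 113 in the adult library (19.1%). Endothelial markers summed to 48.5, 25.7 and 15.2 CPM and muscle markers to 12.8, 1.53 and 0 CPM, all 5 muscle markers being at 0 at 13w. The cells with the highest doublet scores made up 97 of the 1285, 46 of the 553 and 104 of the 591 double-positive cells. Within the adult double-positive cells, those with blood markers held 3527 CPM of the 36 genes (3456 to 3598) and those without held 2025 CPM (1999 to 2052). The same split ran the other way in the embryonic library, at 2899 CPM in the 29 cells with blood markers (2791 to 3011) and 3365 CPM in the rest (3346 to 3385), and at P0 the 3 cells with blood markers held 2169 CPM (1883 to 2488) and the rest 2198 CPM. For 20 genes of mitosis the adult cells with and without blood markers were at 2665 and 6841 CPM.

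Gene by gene, Mcm2 was at 53.0 CPM in adult double-positive cells with blood markers and at 10.4 CPM in those without, Mcm6 at 133 and 31.7 CPM, and Uhrf1 at 99.7 and 30.4 CPM. Rrm1 did not differ, at 117 CPM in both, and Rrm2 was at 158 and 137 CPM. Tk1 ran the other way, at 57.4 and 133 CPM. The adult double-positive cells were thus made up of cells that differed in these genes by more than counting error, as the plot of the split shows.

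Without the cells carrying blood markers, a choice made after seeing these values, the adult library stood further below the embryonic one. At 13w against E16.5, 12 of 35 members were then called lower in double-positive cells and 0 higher, in place of 2, against 16% and 14.3% of 8541 genes, with medians of -0.82 for the members and -0.12 for all genes. The 12 were Gins1, Mcm2, Mcm3, Mcm6, Mcm4, Rfc1, Lig1, Mcm5, Pclaf, Pola1, Gins2 and Pola2, with Gins1 3.86-fold and Mcm2 3.36-fold lower. At 13w against P0, Rrm2 was still called higher (log2 ratio 1.25) and Mcm2 was called lower (-1.14), 1 member each way of 34, against 9.34% and 9.36% of 8355 genes, with a median of -0.23. At P0 against E16.5 the count stayed at 6 lower and 0 higher of 35, against 5.2% and 6.92% of 8322 genes.

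**Figure D5:**
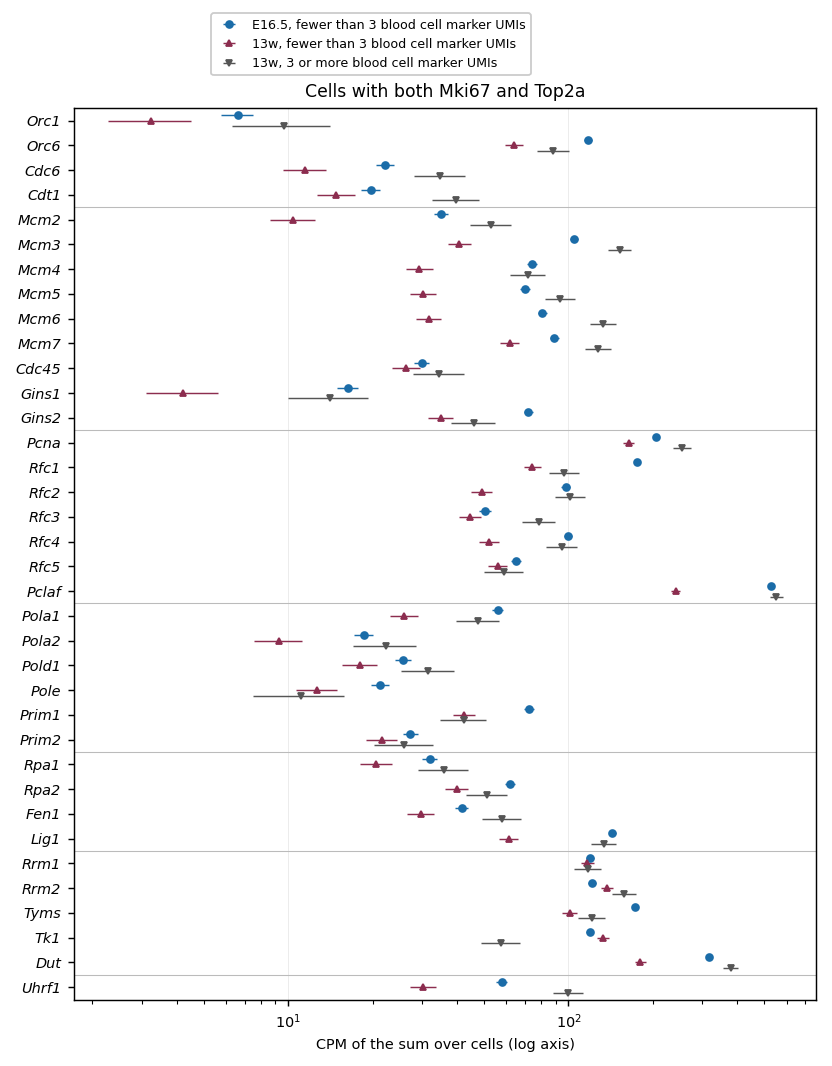
CPM (log axis) of each gene in cells with both Mki67 and Top2a, for E16.5 cells and 13w cells with fewer than 3 blood cell marker UMIs and for 13w cells with 3 or more, with 95% counting intervals. The 13w cells without blood markers lie left of the other groups for most genes, with Mcm2 at 10.4 against 53.0 CPM, while Rrm1 points coincide and Tk1 is lowest in the cells with blood markers.

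Other genes of the same pathways gave the setting. Of 54 further replication and nucleotide genes, 19 of the 42 measured over all cells were called lower and 0 higher at P0 against E16.5 (median -0.93), 4 of 33 lower and 0 higher at 13w against P0 (-0.43), and 26 of 42 lower and 0 higher at 13w against E16.5 (-1.28). Over all measured genes the shares lower were 8.72%, 7.93% and 16.3%, and the shares higher 5.31%, 8.46% and 11%. Dctd, a dCMP deaminase, was at 27.7, 6.86 and 1.89 CPM. Pold4, a small subunit of polymerase delta, was at 36.3, 51.2 and 63.0 CPM, opposite in order to Pold1, with a log2 ratio of 0.80 at 13w against E16.5. In double-positive cells 7 of 52 were called lower and 0 higher at P0 against E16.5 (-0.36), where 5.28% and 6.75% of all genes were, 1 of 45 lower and 2 higher at 13w against P0 (-0.17), where 8.36% and 9.62% were, and 9 of 52 lower and 1 higher at 13w against E16.5 (-0.61), where 13% and 13.8% were. Chaf1b, a subunit of the chromatin assembly factor that follows the fork, was at 36.8, 36.3 and 12.3 CPM in double-positive cells, while Asf1b, another histone chaperone, was at 36.9, 21.6 and 55.3 CPM.

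In double-positive cells, genes of mitosis were not called lower after birth. Those cells were picked by Mki67 and Top2a, whose RNA is most abundant late in the cycle. Levels of mitotic genes in them are therefore tied to that choice. Over all cells 11 of 20 were called lower and 0 higher at P0 against E16.5 (median -1.05), 0 of 19 either way at 13w against P0 (0.10), and 9 of 20 lower and 0 higher at 13w against E16.5 (-0.97). Over all measured genes the shares lower were 8.72%, 7.93% and 16.3%, and the shares higher 5.31%, 8.46% and 11%. In double-positive cells 0 of 20 were called at P0 against E16.5 (median 0.00), where 5.28% of all genes were lower and 6.75% higher. At 13w against P0, 1 was called higher and 0 lower (0.60), where 9.62% and 8.36% of all genes were. At 13w against E16.5, 1 was called higher and 0 lower (0.55), where 13.8% and 13% were. The 20 genes of mitosis summed in these cells to 3910 CPM in the E16.5 library, 3834 in the P0 library and 6026 in the adult library, where the 36 replication genes had 3353, 2198 and 2318 CPM. Ube2c, a ubiquitin-conjugating enzyme of the anaphase-promoting complex, was at 486, 336 and 710 CPM, and Cdc20, the activator of that complex, at 147, 186 and 317 CPM. The double-positive cells of the 3 libraries thus differed in mitotic RNA as well, and the part of this in the replication gene values was not tested.

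Regulators of S phase entry were called in both directions. Over all cells 8 of 19 were called lower and 1 higher at P0 against E16.5 (median -0.72), 3 of 14 lower and 2 higher at 13w against P0 (-0.26), and 11 of 19 lower and 2 higher at 13w against E16.5 (-1.28). Over all measured genes the shares lower were 8.72%, 7.93% and 16.3%, and the shares higher 5.31%, 8.46% and 11%. In double-positive cells 2 of 19 were called lower and 1 higher at P0 against E16.5 (-0.36), where 5.28% and 6.75% of all genes were, 3 of 21 lower and 5 higher at 13w against P0 (-0.10), where 8.36% and 9.62% were, and 6 of 21 lower and 5 higher at 13w against E16.5 (-0.19), where 13% and 13.8% were. Cdkn1a, an inhibitor of cyclin-dependent kinases, was at 70.5, 209 and 760 CPM, and Cdkn2c, an inhibitor of Cdk4 and Cdk6, at 47.2, 91.6 and 364 CPM. Cdkn1c, another inhibitor and an imprinted gene, was at 2209, 2375 and 85.7 CPM. Ccnd1, a D-type cyclin, was at 228, 98.5 and 18.7 CPM, and Ccne1, a cyclin of S phase entry, at 67.7, 36.7 and 11.6 CPM. Cdk6 was at 35.7, 65.5 and 160 CPM and E2f2, an activating E2F factor, at 6.33, 4.96 and 21.9 CPM.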

How the data were processed

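The deposited files hold raw UMI counts for each gene in each cell of 3 libraries. Per the file headers the authors made them with Cell Ranger 6.1.2, and the submitters' processing notes name GRCm39 as the build. The values are whole numbers and were not normalised. Barcodes had already been called as cells. Counts were loaded in Python 3.11.15 and cells kept by the limits in the report. Scrublet, run through scanpy 1.11.5, marked at most 0.153% of cells as doublets with its own threshold and was taken not to have worked, so doublets stayed in, and an alternative dropped the highest scorers (167 cells of the E16.5 library, 144 of the P0 library and 516 of the adult library). Counts were summed per library and cell group and scaled to CPM, with exact Poisson intervals for levels, conditional binomial intervals for ratios and Clopper-Pearson intervals for shares, computed in scipy 1.17.1. The call rule was tested on simulated data. Scaling factors came from edgeR 4.0.16. The median-of-ratios factors were computed directly. Alternatives numbered 10 over all cells and 12 in double-positive cells, 1 of them added after seeing the data. The members, gene lists, markers and motif words were chosen with earlier results of these data known. Members were described by role, and genes of the other lists were taken from the 3 largest ratios in each direction per comparison. Pairs of overlapping or antisense genes were not resolved.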

Additional observations from a re-analysis of the deposited data

How the results depend on the processing

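Of 63 member values that had been called, 0 changed direction under any alternative run. Their sizes were less stable. Over all alternatives these gave 648 values, of which 267 moved by more than the counting error of the main value and 381 did not. Of 96 uncalled values of at least 0.2 in size (log2), 10 changed direction under at least 1 alternative, all in double-positive cells. Scaling by TMM moved the median of all genes over all cells from -0.13 to 0.06 at P0 against E16.5, from -0.13 to 0.05 at 13w against P0 and from -0.29 to 0.09 at 13w against E16.5, while the members' median less that of all genes went from -1.16 to -1.18, from -0.33 to -0.34 and from -1.28 to -1.31. The share of calls that were higher, over all genes, went from 37.9% to 59.9%, from 51.6% to 65.0% and from 40.2% to 65.3%, and in double-positive cells at 13w against E16.5 from 51.3% to 62.2%. At 13w against P0 over all cells, members called lower numbered 2 when measured from 1 CPM, 8 at 1.5-fold, 3 with cells thinned to 3000 UMIs, 4 with a mean over cells, 2 without the top Scrublet cells, 4 without blood, endothelial and muscle cells and 4 without blood cells alone (added after seeing the data), in place of 0, and 2 were called higher at 1.5-fold in place of 1. In double-positive cells at P0 against E16.5, 16 were called lower at 1.5-fold, 2 when thinned, 3 without the top Scrublet cells and 18 with either gene sufficing, in place of 6. Of all measured genes, 1366 of 8341, 745 of 8680, 393 of 8316 and 583 of 8328 were lower in those runs, in place of 440 of 8341. In double-positive cells at 13w against P0, 2 members were called higher at 1.5-fold and 2 with either gene sufficing, in place of 1, and 1 was called lower at 1.5-fold, 1 without blood, endothelial and muscle cells and 1 without blood cells alone, in place of 0. At 13w against E16.5, 1 was called lower with TMM factors, 18 at 1.5-fold, 12 without blood, endothelial and muscle cells, 12 without blood cells alone and 9 with either gene sufficing, in place of 2. A 1.5-fold limit admits smaller ratios by construction. For the other alternatives the cause was not tested. No paired analysis was possible because each stage has 1 library, and no library could be left out of a comparison for the same reason. The 10 CPM limit left out Orc1, Gins1 and Pole over all cells. Measured from 1 CPM, all 36 members entered. Then 26 were called lower at P0 against E16.5, and 1837 of all 13426 genes were. At 13w against E16.5, 33 members were called lower, and 2697 of all 13615 genes were.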

Other observations

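Replication gene levels also differed between the marker groups of the tissue. In each library the tenth of cells (10%) with the highest share of UMIs from a marker list was taken, groups chosen after seeing the data that can overlap. Among these groups, cells ranked by superficial fibrocartilage markers (Prg4, Cilp, Cilp2 and Tppp3) held the most RNA of the 36 genes, 2092 CPM in the E16.5 library, 1253 in the P0 library and 597 in the adult library, and 26.3%, 21.5% and 5.11% of them held both Mki67 and Top2a. Cells ranked by fibroblast markers came next, at 1670, 820 and 469 CPM. All kept cells together were at 1843, 741 and 585 CPM, and 28.2%, 13.8% and 7.36% of them held both genes. The superficial group was thus close to all cells in CPM at 13w (580 to 614). Its share of cells with both genes was below that of all cells at E16.5 and 13w. Cells ranked by chondrocyte markers held 386, 284 and 290 CPM, and those ranked by hypertrophic markers 397, 329 and 316 CPM, so that these groups differed by less between stages. Cells ranked by osteoblast markers held 583, 329 and 285 CPM, a wider difference than in those 2 groups, and 9.65%, 2.75% and 1.25% of them held both Mki67 and Top2a. Median depth differed between the groups, for example 13222 UMIs in the superficial and 45456 in the chondrocyte group at E16.5, and the part of this in the levels was not tested.

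Mcm6 was the exception among the Mcm subunits in cells ranked by hypertrophic markers (Col10a1, Ihh, Mmp13 and Pth1r). It was at 12.4 CPM in the E16.5 library (10.9 to 14.2), 16.8 in the P0 library (14.7 to 19.1) and 32.3 in the adult library (29.7 to 35.1) there, a higher level at each stage in turn, where it was 58.2, 25.3 and 19.4 CPM over all cells. Mcm2 was at 2.73, 2.11 and 1.44 CPM in the same cells, Mcm3 at 5.89, 2.19 and 3.06 CPM, Mcm4 at 4.53, 3.72 and 4.50 CPM, Mcm5 at 3.82, 1.75 and 1.5 CPM and Mcm7 at 11.5, 18.4 and 9.98 CPM. Of these adult cells 1.12% held both Mki67 and Top2a. The files count 3′ ends by gene symbol, and whether the adult Mcm6 UMIs come from the full-length transcript or from a neighbouring or overlapping one was not tested.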
